A study of Mus musculus with 20 samples.

Results

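The bone morphogenetic protein (BMP) pathway genes described here were 10 genes picked by name from a deposited table of 45705 genes. They comprise the ligands Bmp2, Bmp4, Bmp6 and Bmp7, the receptors Bmpr1a, Bmpr1b and Bmpr2, the intracellular effectors Smad1 and Smad9, and the secreted antagonist Nog. All 10 were found in the table. Levels are RPKM, that is, reads per kilobase of gene scaled to the read total of the library, as deposited for 20 RNA-seq libraries.

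A BMP ligand is a secreted dimer of the TGF-beta superfamily that brings type I and type II serine/threonine kinase receptors together at the cell surface. The type II receptor phosphorylates the type I receptor, which in turn phosphorylates the receptor-regulated SMAD proteins, and these enter the nucleus with the shared partner SMAD4. Noggin, the product of Nog, binds BMP ligands outside the cell and keeps them from their receptors. In the postnatal subventricular zone, BMP signalling is known to favour astroglial fates, and noggin made by ependymal cells next to the stem cells is known to permit neurogenesis.

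The study compared neural stem cells (NSC) with 4 populations of neural progenitors from the subventricular zone of Swiss Webster mouse pups at postnatal day 5. Cells from pooled pups were sorted on CD133, the LeX carbohydrate (CD15), CD140a (the PDGF receptor alpha) and NG2. NSC were sorted as CD133+ LeX+ cells lacking CD140a and NG2. BNAP/GRP1 and GRP2/MP3 carried NG2 without CD140a or CD133, the former with CD15 and the latter without. GRP3 and PFMP carried both CD140a and NG2 without CD133, and PFMP carried CD15 in addition. All 5 populations were untreated wild-type cells, and each was profiled once in each of 4 batches, which are 4 independent experiments, giving 4 libraries per population. Libraries are named below by population and batch. Each sorted sample was bulk RNA, in which fewer cells of a type and less RNA per cell cannot be told apart.

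Some libraries stood apart from the rest. The 5 batch 3 libraries all carried lung epithelium genes, whose 6 markers summed to between 854 and 976 RPKM there and to at most 71.3 RPKM elsewhere, and alveolar macrophage genes, whose 6 markers summed to between 1126 and 1303 RPKM. The median over all genes was raised in 4 of the 5 batch 4 libraries, at 8.30 RPKM in BNAP/GRP1, 2.02 RPKM in GRP3, 1.61 RPKM in NSC and 0.977 RPKM in GRP2/MP3, against at most 0.237 RPKM in batches 1 to 3 and 0.00791 RPKM in PFMP of batch 4. The summed level of the 9 markers of NSC and astroglia overlapped, at 261 to 5811 RPKM in NSC and 152 to 14888 RPKM in the progenitors. Taken singly, 6, 7, 6 and 4 of the 9 were below NSC in each of batches 1, 2 and 4 in BNAP/GRP1, GRP2/MP3, GRP3 and PFMP, and 0, 0, 0 and 2 were above. The 8 ependymal markers summed to between 1345 and 15023 RPKM in the 4 NSC libraries and to at most 549 RPKM in the 16 progenitor libraries. The 7 markers of oligodendrocyte progenitors (OPC), Pdgfra and Cspg4 of the sort among them, summed to between 346 and 3497 RPKM in the GRP3 and PFMP libraries of batches 1, 2 and 4, and to 15 and 15.5 RPKM in those of batch 3. The 8 microglia markers reached 6070 RPKM in GRP2/MP3 and 5463 RPKM in BNAP/GRP1, both of batch 1, and 690 and 105 RPKM in those of batch 4. In batch 3 they summed to 1633 RPKM in NSC, 1836 RPKM in GRP3 and 1713 RPKM in PFMP. In the other batches of these 3 populations they summed to at most 115 RPKM. Results are therefore given for all batches, and again without batch 3 or BNAP/GRP1 of batch 4 where these decided a value.

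On the GRCm38 assembly all 10 genes are protein-coding. Bmp2 lies on the plus strand at chr2:133552159-133562885 and Bmp7 on the minus strand of the same chromosome at chr2:172868012-172940321. Bmp4 is at chr14:46383520-46390669 on the minus strand, where it overlaps Gm15217 and Gm15222 on the other strand. Bmp6 is at chr13:38345107-38500302 on the plus strand, and Txndc5 and 4930579J19Rik overlap it on the opposite strand. Of the receptors, Bmpr1a is at chr14:34410734-34503341, Bmpr1b at chr3:141837136-142169425, both on the minus strand, and Bmpr2 at chr1:59763400-59879014 on the plus strand. Smad1 is at chr8:79338395-79399518 on the minus strand, Smad9 at chr3:54755582-54801257 on the plus strand, and Nog at chr11:89300638-89302332 on the minus strand. Whether reads were assigned by strand is not given in the sources used here, so the values of Bmp4, Bmp6 and Bmpr1a, which overlap antisense genes, and of Bmpr2, which shares a stretch of its own strand with Gm38125, are uncertain to that extent.

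Promoter windows of 300 bases, from 250 bases before to 50 bases after an annotated start, were given by RefSeq on GRCm38.p6 for 7 of the 10 genes, in 9 windows. Each was searched for GGCGCC, a palindrome of 6 bases bound by BMP-activated SMAD proteins, which reads the same on both strands. It occurred in 3 of the 9 windows, those of Bmpr2, Smad9 and Bmpr1a, and in 3898 of all 32851 windows, or 11.9%. It occurred in 9 of 32 windows of the other BMP pathway genes, in 2 of 6 of the target genes and in 2 of 11 of the TGF-beta and activin branch. GGCGCC itself holds a CpG, a C followed by a G. The matching windows of Bmpr2, Smad9 and Bmpr1a hold 23, 31 and 48 CpG, against a median of 7 over all windows. The part of base composition in these counts was not tested. The windows of Bmp6 and Bmp4 are shown because these ligands differ most in direction between NSC and the progenitors, and that of Bmpr2 because it belongs to the member with the highest mean level. They lie at chr13:38345466-38345765 (Bmp6, plus strand), chr14:46390620-46390919 (Bmp4, minus strand) and chr1:59764029-59764328 (Bmpr2, plus strand), are written 5′ to 3′ on the gene's strand, and have GGCGCC in capitals.
Bmp6: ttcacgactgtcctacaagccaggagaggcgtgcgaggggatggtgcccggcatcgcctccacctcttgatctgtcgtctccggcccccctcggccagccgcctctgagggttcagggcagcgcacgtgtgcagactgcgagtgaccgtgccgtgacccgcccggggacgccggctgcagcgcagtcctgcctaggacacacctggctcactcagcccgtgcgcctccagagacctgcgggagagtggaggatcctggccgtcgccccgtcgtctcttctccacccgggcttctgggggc
Bmp4: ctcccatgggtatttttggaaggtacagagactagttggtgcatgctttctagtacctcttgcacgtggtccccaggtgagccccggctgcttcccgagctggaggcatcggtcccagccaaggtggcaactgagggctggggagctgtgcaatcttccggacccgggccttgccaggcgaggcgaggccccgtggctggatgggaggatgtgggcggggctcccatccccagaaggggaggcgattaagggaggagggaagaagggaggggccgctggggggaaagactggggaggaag
Bmpr2: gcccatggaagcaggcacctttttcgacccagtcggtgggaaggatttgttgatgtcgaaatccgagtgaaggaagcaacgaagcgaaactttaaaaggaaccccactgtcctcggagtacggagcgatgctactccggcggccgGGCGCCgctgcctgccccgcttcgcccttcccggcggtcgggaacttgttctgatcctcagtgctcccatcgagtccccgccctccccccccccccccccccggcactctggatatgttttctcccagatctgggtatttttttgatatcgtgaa
The match in Bmpr2 starts 105 bases before the RefSeq start that its window was drawn around, which lies inside the gene span given above, and the windows of Bmp6 and Bmp4 hold no match. A match is only a match of letters.

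The receptors Bmpr1a and Bmpr2 and the effector Smad1 were read at 1 RPKM or more in all 20 libraries, whereas each ligand and Nog was below that level in some. In order of mean RPKM over the 20 libraries, Bmpr2 (12.4 RPKM) and Bmp7 (12 RPKM) came first, followed by Smad1 (10.9 RPKM), Bmpr1a (8.02 RPKM), Bmp4 (7.60 RPKM), Nog (3.85 RPKM), Bmp6 (2.64 RPKM), Bmp2 (2.22 RPKM), Bmpr1b (1.41 RPKM) and Smad9 (0.750 RPKM). The high means of Bmp7 and Bmp4 rested on some libraries, with Bmp7 ranging from 0.00976 to 54.2 RPKM and Bmp4 from 0 to 51.1 RPKM, while Bmpr2 ranged only from 2.32 to 26.4 RPKM.

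**Figure D1:**
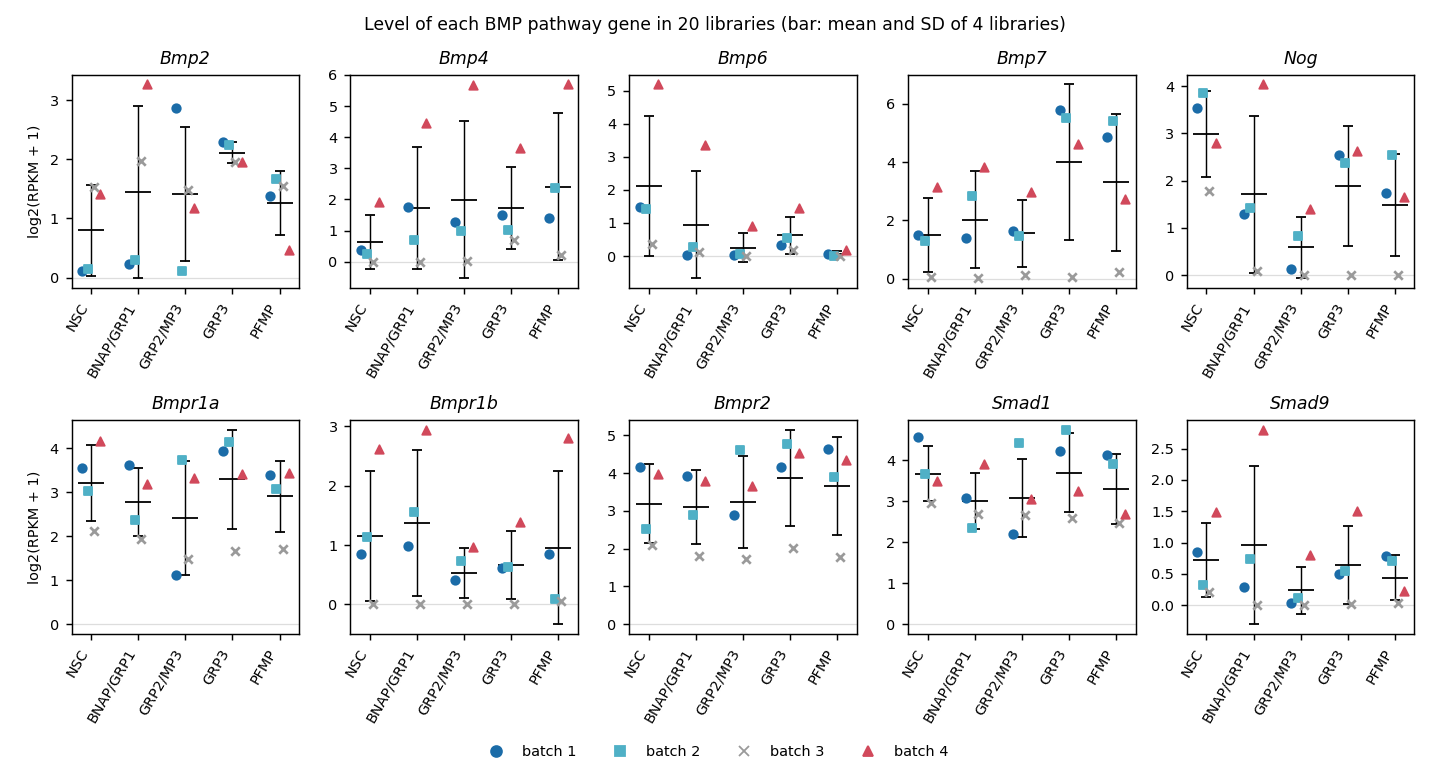
Level of each of the 10 genes as log2(RPKM + 1) in the 5 populations, with 1 point per library coloured and shaped by batch, and black bars for the mean and SD of the 4 libraries. Batch 3 (grey crosses) is at or near 0 for Bmp7 and Bmpr1b in every population, Bmp6 and Nog are highest on average in NSC, and Bmp7 is highest in GRP3 and PFMP of batches 1 and 2.

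Each population was compared with NSC on log2(RPKM + 1), with limma fitted to the 27614 genes that reached 1 RPKM in at least 4 of the 20 libraries, and p-values adjusted over all of them. Of the 10 genes, 9 entered the test, and Smad9 did not reach that level. No member was called (adjusted p under 0.05) in BNAP/GRP1, GRP2/MP3, GRP3 or PFMP against NSC, or in their mean against NSC, where 0.76%, 1.12%, 1.05%, 1.14% and 1.98% of all genes tested were called. The 6 comparisons of progenitors with each other called 0% of all genes, and no member passed there at an unadjusted p under 0.05 either. At an unadjusted p under 0.05, Nog and Bmp6 passed in GRP2/MP3 and in the mean of the progenitors, and Bmp6 passed in PFMP, all of them lower than in NSC. At that level 5.9%, 5.79%, 5.62%, 5.88% and 6.87% of all genes passed in BNAP/GRP1, GRP2/MP3, GRP3, PFMP and the mean.

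Since the batches are experiments shared by the 5 populations, the same fit was also made with batch as a block. Then Nog was called in GRP2/MP3 (adjusted p = 0.0202) and Bmp6 in the mean of the progenitors (adjusted p = 0.0496), both lower than in NSC, and no other member passed in any of the 11 comparisons. With the block, 2.09%, 3.08%, 2.6%, 2.79% and 4.36% of all genes were called in BNAP/GRP1, GRP2/MP3, GRP3, PFMP and the mean, so that 1 of 9 members stood beside 3.08% of genes in GRP2/MP3 and beside 4.36% in the mean. The median log2 difference of the 9 members from NSC was -0.28 in the mean of the progenitors, against 0.07 over all genes tested. In BNAP/GRP1 the median over all genes was itself 0.38, and 0.27 after median-of-ratios scaling, so differences there stand against a raised baseline. That baseline rested on 1 library, as the median was -0.20 without BNAP/GRP1 of batch 4.

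In the comparison of libraries with the NSC library of their own batch, 3 members moved in nearly 1 direction. Bmp6 was below NSC in all 16 progenitor libraries, which held for 3.28% of all genes tested. Nog was below in 15 of 16, a count of 15 or 16 being reached by 6.13% of genes. Bmp4 was above in 15 of 16, with the last pair both listed at 0, and 1.63% of genes were above in 15 or 16. The other members were mixed, with Bmp2 and Bmp7 above NSC in 12 libraries each and Smad1 below in 12.

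**Figure D2:**
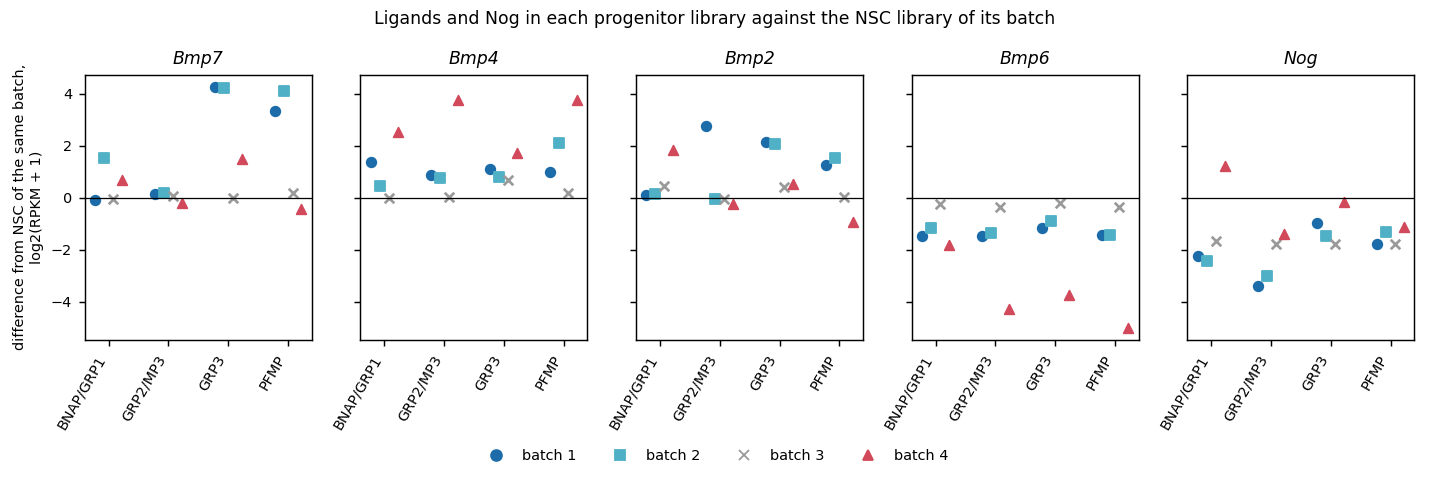
Difference in log2(RPKM + 1) between each progenitor library and the NSC library of the same batch, for Bmp7, Bmp4, Bmp2, Bmp6 and Nog, with 1 point per library and the line at 0 for no difference. Bmp6 lies below 0 in all 16 libraries, Nog in 15 of 16, and Bmp7 of GRP3 and PFMP lies highest in batches 1 and 2.

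Bmp7 encodes a ligand made by many epithelial and neural tissues. It set GRP3 and PFMP apart in batches 1 and 2, where the OPC marker sums of these 2 populations were highest. In NSC it was at 1.84, 1.47, 0.0312 and 7.87 RPKM in batches 1 to 4. GRP3 had 54.2, 44.9, 0.0352 and 23.7 RPKM, and PFMP had 27.8, 41.6, 0.176 and 5.61 RPKM. BNAP/GRP1 libraries read 1.65, 6.22, 0.00976 and 13.1 RPKM. GRP2/MP3 stayed at 2.12, 1.78, 0.095 and 6.79 RPKM, close to NSC in each batch. In batches 1, 2 and 4 every GRP3 library was above every NSC library, whereas batch 3 was under 0.2 RPKM in all 5 populations.

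On the log2 scale Bmp7 was 2.50 ± 1.23 (SE, n = 4 against 4) higher in GRP3 than in NSC, with an adjusted p of 0.931 by limma, and 1.80 ± 1.23 higher in PFMP (adjusted p = 1.00). With batch as a block the adjusted p was 0.103 in GRP3 and 0.325 in PFMP. Without batch 3 the difference in GRP3 was 3.33 ± 0.83 (adjusted p = 0.0600, higher in 3 of 3 batches). When BNAP/GRP1 of batch 4 was also left out and the block added, the same difference was called (adjusted p = 0.0479), beside 3.44% of all genes, and with limma's library weights it was 4.18 (adjusted p = 0.000346), beside 17.7% of all genes. In batches 1 and 2 alone, a choice made after seeing the data, it was 4.25 ± 0.51 in GRP3 (adjusted p = 0.00786) and 3.73 ± 0.51 in PFMP (adjusted p = 0.0126), and Bmp7 was also called in the mean of the progenitors. In these batches 4.89%, 5.99%, 5.69%, 5.56% and 6.99% of all genes were called in BNAP/GRP1, GRP2/MP3, GRP3, PFMP and the mean.

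Between progenitors, Bmp7 was 2.44 ± 1.23 higher on the log2 scale in GRP3 than in GRP2/MP3, and 1.75 ± 1.23 higher in PFMP, neither of which was called over the 4 batches. In batches 1 and 2 alone both were called, at 4.09 (adjusted p = 0.0239) and 3.57 (adjusted p = 0.0356), beside 2.41% and 1.8% of all genes. The order of the mean log2 levels was GRP3 (4.00), PFMP (3.30), BNAP/GRP1 (2.02), GRP2/MP3 (1.55) and NSC (1.5), and no neighbours in that order differed beyond their spread over the 4 batches.

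Bmp7 was highest in the libraries with the highest OPC marker sums, GRP3 and PFMP of batches 1 and 2, but did not follow the markers throughout. All 7 OPC markers were above NSC in batches 1, 2 and 4 of both GRP3 and PFMP, and none was listed at 0 in all 4 libraries of any population. Their sum was 2930 and 3497 RPKM in GRP3 of batches 1 and 2, 750 RPKM in batch 4 and 15 RPKM in batch 3. The corresponding sums in PFMP were 2256, 2444, 346 and 15.5 RPKM for batches 1, 2, 4 and 3. NSC had 2.7 to 32.4 RPKM, the highest in batch 4. Yet Bmp7 in PFMP of batch 4 was below NSC of that batch, at 5.61 against 7.87 RPKM. In batch 4 the marker sum was 151 RPKM in GRP2/MP3 and 126 RPKM in BNAP/GRP1. Bmp7 in these 2 libraries was at 6.79 and 13.1 RPKM, below and above NSC. The part of OPC content in the Bmp7 difference was not tested.

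**Figure D3:**
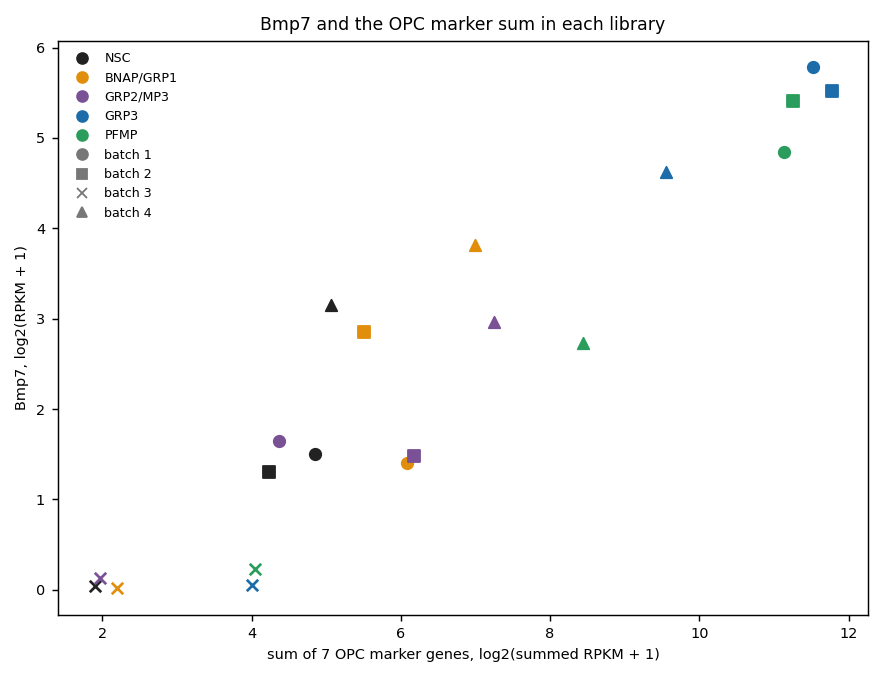
Bmp7 as log2(RPKM + 1) against the summed RPKM of 7 OPC marker genes on the same scale, with 1 point per library, coloured by population and shaped by batch. The GRP3 and PFMP libraries of batches 1 and 2 are at the upper right, with Bmp7 from 27.8 to 54.2 RPKM, and the 5 batch 3 libraries are at the lower left.

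Bmp4, a ligand also known as a marker of newly committed oligodendrocytes, was lowest in NSC and followed batch 4. In NSC it was at 0.304, 0.174, 0 and 2.77 RPKM in batches 1 to 4. BNAP/GRP1 had 2.36, 0.632, 0 and 20.7 RPKM. GRP2/MP3 had 1.41, 0.987, 0.0097 and 50.7 RPKM. Both populations thus had their highest value in batch 4, as GRP3 did with 1.84, 1.03, 0.628 and 11.5 RPKM, and PFMP with 1.62, 4.13, 0.149 and 51.1 RPKM. In every population the batch 4 library was the highest, and the ranges of NSC and each progenitor overlapped.

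The log2 difference of Bmp4 from NSC was 1.78 ± 1.23 in PFMP, 1.36 ± 1.23 in GRP2/MP3, and 1.09 ± 1.23 in both BNAP/GRP1 and GRP3. None was called, with adjusted p from 0.866 to 1.00, and none was called with the block, where PFMP had an adjusted p of 0.12. Leaving out the population's own batch 4 library brought the difference to 0.68 in PFMP, 0.44 in GRP3, 0.19 in BNAP/GRP1 and 0.13 in GRP2/MP3. NSC of batch 4, the highest NSC library, was kept in these fits, so they do not compare like batches. Against NSC of the same batch, the differences in batches 1 to 3 were 1.01, 2.13 and 0.20 in PFMP. They were 1.12, 0.79 and 0.70 in GRP3, 1.37, 0.47 and 0 in BNAP/GRP1, and 0.89, 0.76 and 0.014 in GRP2/MP3. With batch 4 left out of every population, the difference of the mean of the progenitors was 0.79. The 5 other premyelinating oligodendrocyte markers summed to 616 RPKM in GRP2/MP3 and 1102 RPKM in PFMP of batch 4, where Bmp4 was near 51 RPKM. Those sums were 78.0 RPKM in BNAP/GRP1 and 125 RPKM in GRP3 of batch 4, and 339 RPKM in NSC of batch 4, where Bmp4 was at 2.77 RPKM. In GRP3 of batches 1 and 2 the markers summed to 318 and 350 RPKM with Bmp4 under 2 RPKM. The 7 pericyte markers summed to 7336 RPKM in GRP2/MP3 of batch 4 and to 47.3 RPKM in PFMP of that batch, which had the same level of Bmp4. The part of these cells in the Bmp4 values was not tested.

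Bmp2, which signals through the same receptors as Bmp4, was low throughout. NSC had 0.0850, 0.11, 1.87 and 1.65 RPKM in batches 1 to 4. GRP3 had 3.88, 3.7, 2.89 and 2.86 RPKM, the narrowest spread of any population, and its lowest library was above the highest of NSC. That separation upwards from NSC was shown by 0.746% of all genes tested. PFMP had 1.59, 2.17, 1.92 and 0.383 RPKM. In BNAP/GRP1 the values were 0.180, 0.236, 2.90 and 8.62 RPKM, the last in the library with the highest median over all genes. GRP2/MP3 read 6.30, 0.0857, 1.80 and 1.26 RPKM, so a single library held its mean up. The log2 difference in GRP3 was 1.31 ± 0.70 (higher in 4 of 4 batches), with an adjusted p of 1.00 by limma. It was called only when limma's library weights were used, at 1.9 (adjusted p = 0.00376), where 17.7% of all genes were called. Bmp2 was the ligand with the highest RPKM in all 5 batch 3 libraries, from 1.80 to 2.90 RPKM, where the other 3 ligands were at most 0.628 RPKM.

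Bmp6 ran the other way and was highest in NSC. There it was at 1.82, 1.67, 0.285 and 35.7 RPKM in batches 1 to 4. BNAP/GRP1 had 0.0204, 0.203, 0.0834 and 9.31 RPKM. GRP2/MP3 was at 0.0146, 0.0437, 0 and 0.865 RPKM. In both, batch 4 was far above the other batches, as in NSC. GRP3 had 0.269, 0.450, 0.123 and 1.73 RPKM, and PFMP had 0.0434, 0, 0 and 0.135 RPKM. The highest PFMP library was below the lowest NSC library, a separation shown by 3.51% of all genes tested. Outside NSC and BNAP/GRP1 of batch 4, Bmp6 passed 1 RPKM only in GRP3 of batch 4, where it was below that library's median over all genes.

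The log2 difference of Bmp6 from NSC was -2.06 ± 0.83 in PFMP, -1.87 ± 0.83 in GRP2/MP3, -1.49 ± 0.83 in GRP3 and -1.17 ± 0.83 in BNAP/GRP1. In the mean of the progenitors it was -1.65 ± 0.66 (adjusted p = 0.432 by limma and 0.0496 with the block, lower in 16 of 16 libraries). NSC of batch 4 weighed heavily on the size. Without it the difference of the mean was -0.62, and without all of batch 4 it was -0.96 ± 0.19 (adjusted p = 0.0147, beside 2.9% of all genes called). In single progenitors the differences without NSC of batch 4 were -0.15 in BNAP/GRP1, -0.47 in GRP3, -0.85 in GRP2/MP3 and -1.03 in PFMP. The batch 4 libraries of the progenitors were kept in these fits, so they do not compare like batches. Against NSC of the same batch, the differences in batches 1 to 3 were -1.47, -1.15 and -0.25 in BNAP/GRP1. They were -1.15, -0.88 and -0.19 in GRP3, -1.47, -1.35 and -0.36 in GRP2/MP3, and -1.43, -1.41 and -0.36 in PFMP. In batches 1 and 2 alone, a choice made after seeing the data, Bmp6 was called in each of the 4 progenitors, beside 4.89% to 5.99% of all genes. The differences there were -1.02 to -1.42, from NSC levels of 1.82 and 1.67 RPKM. The ependymal markers moved with Bmp6, as all 8 were below NSC in batches 1, 2 and 4 of every progenitor and none was listed at 0 in all 4 libraries of a population. Of 6 choroid plexus markers, 3 or 4 were below NSC in those batches of every progenitor, with sums of 9.59 to 214 RPKM in NSC and at most 74.8 RPKM in the progenitors. Of 8 endothelial markers, 6 were below NSC in GRP3 and 7 in PFMP, against 2 in BNAP/GRP1 and 0 in GRP2/MP3. Within NSC the order of Bmp6 and the ependymal markers was not the same, since the marker sum was 15023 RPKM in batch 2, where Bmp6 was at 1.67 RPKM, and 7277 RPKM in batch 4, where it was at 35.7 RPKM. The part of these cells in the Bmp6 values was not tested.

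Nog was the other member that was highest on average in NSC. Its levels there were 10.5, 13.4, 2.43 and 5.96 RPKM in batches 1 to 4. GRP2/MP3 had the least, with 0.0875, 0.784, 0 and 1.64 RPKM, all under the lowest NSC library, a separation shown by 2.93% of all genes tested. GRP3 had 4.82, 4.15, 0 and 5.22 RPKM. PFMP was at 2.34, 4.85, 0 and 2.15 RPKM, below NSC in each batch although the ranges overlapped. BNAP/GRP1 had 1.44, 1.68, 0.0705 and 15.5 RPKM. The last of these was the only progenitor value above the NSC library of its batch, and it came from the library with the highest median over all genes.

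The log2 difference of Nog from NSC was -2.40 ± 0.82 in GRP2/MP3 (lower in 4 of 4 batches), with an adjusted p of 0.311 by limma and 0.0202 with the block. It was -1.50 ± 0.82 in PFMP, -1.28 ± 0.82 in BNAP/GRP1 and -1.10 ± 0.82 in GRP3, none of them called in either fit. Their size moved when single libraries were left out. The difference in GRP3 was -0.48 without GRP3 of batch 3, and that in PFMP was -1.01 without PFMP of batch 3. That in BNAP/GRP1 was -0.74 without its batch 3 library and -2.05 without its batch 4 library. The NSC library of the same batch was kept in these fits, so they do not compare like batches. Against NSC of the same batch, the differences in batches 1, 2 and 4 were -0.99, -1.49 and -0.16 in GRP3. They were -1.79, -1.30 and -1.14 in PFMP, and -2.24, -2.43 and 1.24 in BNAP/GRP1. In batch 3 they were -1.78 in GRP3 and PFMP and -1.68 in BNAP/GRP1. In the mean of the progenitors the log2 difference of Nog was -1.57 ± 0.65 (adjusted p = 0.490 by limma, and 0.0513 with the block). Without batch 3 and with the block, the difference in GRP2/MP3 was -2.61 ± 0.73 and its adjusted p was 0.0826. When BNAP/GRP1 of batch 4 was also left out, Nog was called in GRP2/MP3 (adjusted p = 0.0160) and in the mean (-1.74 ± 0.42, adjusted p = 0.0321), beside 3.94% and 5.42% of all genes. Batches 1 and 2 alone, chosen after seeing the data, gave calls in BNAP/GRP1 (-2.33), GRP2/MP3 (-3.21) and the mean (-2.08). In that setting 4.89%, 5.99% and 6.99% of all genes were called in these comparisons. Between progenitors Nog was 1.30 higher in GRP3 than in GRP2/MP3, with an adjusted p of 0.662 even with the block. Within NSC, Nog and the ependymal marker sum were both highest in batch 2 and both lowest in batch 3, but between batches 1 and 4 the order turned, with Nog at 10.5 and 5.96 RPKM and marker sums of 3196 and 7277 RPKM. The part of ependymal cells in the Nog values was not tested.

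The summed level of the 4 ligands against Nog differed between NSC of batches 1 to 3 and the progenitors, a difference that was not tested. Nog is only 1 of the secreted antagonists, and the others, counted below, are not part of these values. The 4 ligands summed to 4.04, 3.42 and 2.19 RPKM in NSC of batches 1 to 3, each below the Nog level of the same library. In NSC of batch 4 the sum was 48.0 RPKM, of which Bmp6 made 74.4%, and Nog was lower. In all 16 progenitor libraries the ligand sum was above Nog. On log2(value + 1), the sum exceeded Nog by 1.09 to 1.9 in BNAP/GRP1 and by 1.13 to 4.52 in GRP2/MP3. GRP3 had an excess of 2.22 to 3.39, and PFMP of 1.70 to 4.21. In NSC it ran from -1.71 to 2.82, so the NSC range overlapped with each progenitor's through its batch 4 library alone. These are sums of RNA levels and say nothing of secreted protein.

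**Figure D4:**
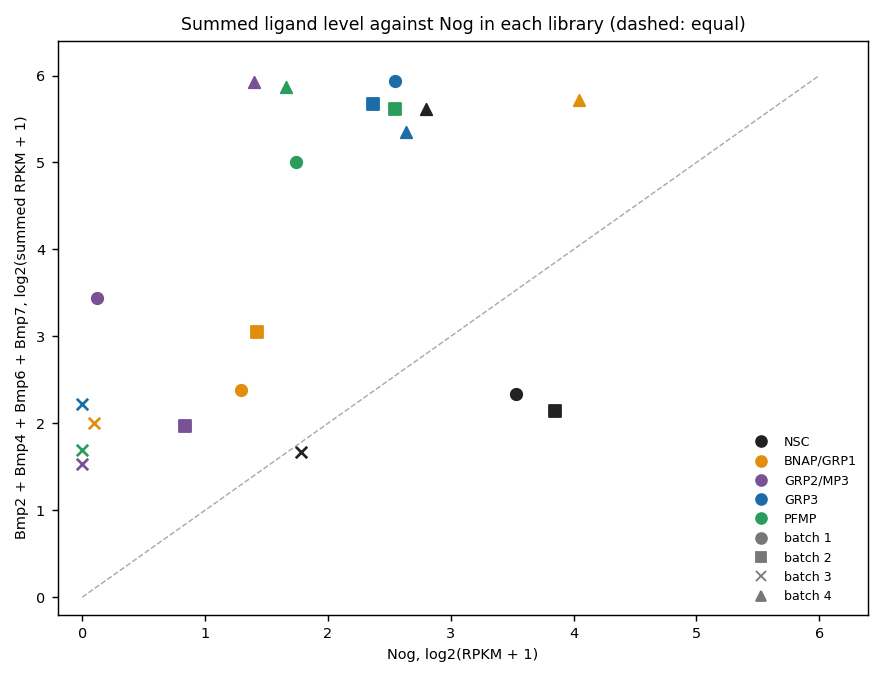
Summed RPKM of Bmp2, Bmp4, Bmp6 and Bmp7 against Nog in each of the 20 libraries, both as log2(value + 1), coloured by population and shaped by batch, with a dashed line where they are equal. NSC of batches 1, 2 and 3 lie below the line, and NSC of batch 4 and the 16 progenitor libraries lie above it.

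The ligand with the highest RPKM changed with population and batch. Bmp7 led in 8 libraries, among them GRP3 of batches 1, 2 and 4 and PFMP of batches 1 and 2, where it made from 59.7% to 90.1% of the ligand sum. Bmp4 led in 4 libraries, which were BNAP/GRP1, GRP2/MP3 and PFMP of batch 4 and BNAP/GRP1 of batch 1. Bmp6 led only in NSC of batches 2 and 4. Bmp2 led in 6, the 5 libraries of batch 3 and GRP2/MP3 of batch 1.

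The receptors were present in all populations without a call between them. Bmpr1a, the widely expressed type I receptor, was at 10.6, 7.17, 3.31 and 16.8 RPKM in NSC and at 14.3, 16.5, 2.18 and 9.72 RPKM in GRP3. PFMP had 9.48, 7.41, 2.28 and 9.88 RPKM, and BNAP/GRP1 had 11.2, 4.18, 2.80 and 8.17 RPKM. In GRP2/MP3 the batches disagreed most, at 1.17, 12.3, 1.80 and 8.95 RPKM. The log2 difference from NSC lay between -0.79 and 0.08, each with an SE of 0.72, and the 95% intervals ran from -2.29 to 1.58.

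Bmpr2, the type II receptor that binds BMP ligands, was at 17.0, 4.70, 3.23 and 14.8 RPKM in NSC. GRP3 had 17.0, 26.4, 3.00 and 22.1 RPKM, and PFMP had 23.8, 13.8, 2.42 and 19.4 RPKM. In 3 of these 8 GRP3 and PFMP libraries, all in batches 1, 2 and 4, it exceeded 20 RPKM. GRP2/MP3 (6.46, 23.6, 2.32 and 11.6 RPKM) and BNAP/GRP1 (14.1, 6.42, 2.48 and 12.8 RPKM) overlapped NSC. The largest log2 difference was 0.68 ± 0.80 in GRP3. Bmpr1b, the second BMP type I receptor, was at most 1.93 RPKM outside batch 4. In batch 4 it was at 5.14 RPKM in NSC, 6.64 RPKM in BNAP/GRP1, 5.97 RPKM in PFMP, 1.63 RPKM in GRP3 and 0.948 RPKM in GRP2/MP3. In BNAP/GRP1, GRP3 and GRP2/MP3 of batch 4 it was below that library's median over all genes. The log2 differences of Bmpr1b from NSC lay between -0.63 and 0.22, with an SE of 0.70. The parts of batch and population in its level were not tested.

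Of the effectors, Smad1 was expressed in all 20 libraries, at 22.9, 11.7, 6.81 and 10.3 RPKM in NSC. GRP3 had 17.9, 25.8, 4.98 and 8.53 RPKM, and PFMP had 16.6, 14.2, 4.52 and 5.47 RPKM. BNAP/GRP1 had 7.53, 4.07, 5.47 and 14.1 RPKM, and GRP2/MP3 had 3.61, 20.3, 5.34 and 7.37 RPKM. Values in all 5 populations overlapped, and the log2 differences from NSC ranged from -0.67 to 0.03 with an SE of 0.63. Smad9, which encodes SMAD8, was under 1 RPKM in 17 of the 20 libraries. Its exceptions were all in batch 4, at 5.95 RPKM in BNAP/GRP1, 1.84 RPKM in GRP3 and 1.82 RPKM in NSC, the first and second of them below the median over all genes of their library, as Bmpr1b was in the same pair of libraries. GRP2/MP3 had 0.0185, 0.083, 0 and 0.738 RPKM of Smad9 in batches 1 to 4, lower than NSC in 4 of 4. NSC had 0.809, 0.248, 0.162 and 1.82 RPKM. In each other progenitor Smad9 was above NSC in some batches and below it in others. The study, which tested with DESeq2, listed Smad9 among the transcription factors lowered against NSC in GRP2/MP3 only.

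The rest of the pathway gave the members their setting, and 43 further BMP genes were counted, of which 35 were tested. None was called by limma in any comparison with NSC without the block. At an unadjusted p under 0.05, 3 were lower in the mean of the progenitors, as were 1645 of all 27614 genes. The median log2 difference of the 35 in the mean of the progenitors was -0.22. With the block, Tob1 and Sostdc1 were called in that mean, beside 4.36% of all genes, and Sostdc1 also in GRP2/MP3, beside 3.08%. Sostdc1 encodes a secreted antagonist of BMP and WNT signalling. It was highest in NSC of batches 1 and 2, at 32.6 and 20.4 RPKM, and it was at most 0.295 RPKM in those batches of BNAP/GRP1 and GRP2/MP3. Its log2 difference in the mean was -2.0 ± 0.69 (adjusted p = 0.247, and 0.0472 with the block). Tob1, whose product restrains BMP-activated SMADs, ran from 8.07 to 47.4 RPKM in NSC and was lower in all 16 progenitor libraries, by 1.26 ± 0.45 on the log2 scale (adjusted p = 0.278, and 0.039 with the block).

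Among the 9 other ligands, 5 were tested and none was called in either fit. The highest of them on average, Bmp3, was under 3 RPKM in all libraries but NSC, BNAP/GRP1, GRP3 and PFMP of batch 4. In batches 1 and 2 alone Bmp8b and Gdf5 were called lower in each of the 4 progenitors, as Bmp6 was, from NSC levels of at most 1.9 RPKM. That setting called 4.89% to 5.99% of all genes in these comparisons. Of 9 other receptors and co-receptors, 8 were tested without a call in either fit, and Eng, an endothelial co-receptor, led them with a range from 0.235 to 33.4 RPKM. The remaining signal transducers Smad4 and Smad5 were not called, and Smad4 was at 8.01 RPKM or more in every library. Skil, a nuclear corepressor of SMADs, was the highest of the 8 intracellular and membrane inhibitors, from 2.24 to 134 RPKM. Of the 15 other secreted antagonists 12 were tested, and Fstl1 was the highest of them, from 4.32 to 133 RPKM.

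Of 8 target genes of BMP signalling, all tested, 0 were called by limma without the block. At an unadjusted p under 0.05, 2 were lower in the mean, as were 1645 of all 27614 genes. Id4 and Hey1 were called with the block, both lower, where 4.36% of all genes were called in the mean. Id4 was at 520, 290, 12.4 and 193 RPKM in NSC and at most 41.1 RPKM in any progenitor library. Hey1 was at 102, 66.9, 8.76 and 34.3 RPKM in NSC and at most 32.7 RPKM in the progenitors. Both were below NSC in 16 of 16 libraries, as Bmp6 was. Their log2 differences in the mean of the progenitors were -3.85 ± 1.10 and -2.27 ± 0.87, with adjusted p of 0.0926 and 0.373 without the block. The study, which tested with DESeq2, listed Id4 as lowered against NSC in all 4 progenitors, and Msx1, another of the 8 targets, in GRP2/MP3 only. The most abundant target, Id2, was at 6.57 to 887 RPKM with no call, its highest value being in BNAP/GRP1 of batch 2. In the neighbouring TGF-beta and activin branch, 12 of 12 genes were tested and none was called without the block. At an unadjusted p under 0.05, 2 were lower in the mean, beside the same 1645 of 27614 genes. Tgfbr3, a co-receptor of TGF-beta, was lower in 16 of 16 progenitor libraries. With the block Tgfbr3 was called in GRP2/MP3, PFMP and the mean (-1.97 ± 0.74 in the mean), beside 3.08%, 2.79% and 4.36% of all genes. The highest gene of that branch, Tgfbr2, was not called.

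**Figure D5:**
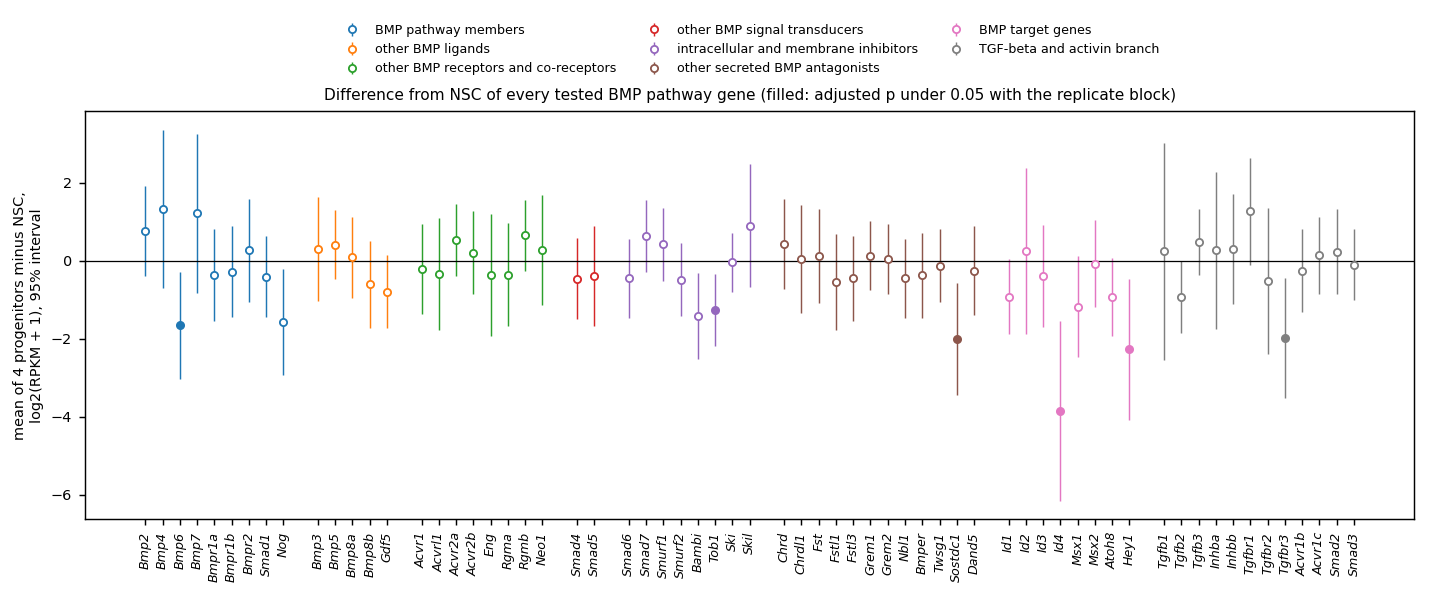
Difference between the mean of the 4 progenitors and NSC, as log2(RPKM + 1) with its 95% interval from the fit without the block, for 9 members, 43 other tested genes of the BMP pathway and its targets, and 12 genes of the TGF-beta and activin branch. Filled points (Bmp6, Tob1, Sostdc1, Id4, Hey1 and Tgfbr3) had an adjusted p under 0.05 with the block, all lower in the progenitors, and the points of Bmp4 and Bmp7 lie above 0 with intervals that include it.

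The genes whose pattern was most like each member were found among the 12228 tested genes with a mean of at least 5 RPKM, by Pearson's r of log2(RPKM + 1) over the 20 libraries after the mean of each batch was removed. The closest to Bmp7 were Pcdh15 (r = 0.98), Slitrk5 (0.97) and Matn4 (0.96), the last of which is in the OPC list. Nog was closest to Fsd1l (0.94), Tmem108 (0.93) and Wdr54 (0.92), and Bmp6 to Spata17 (0.94), Osbpl3 (0.93) and Tsga10 (0.92). For Bmp4 they were Osbpl2, Dguok and Abcf2 (0.89 to 0.92), and for Bmp2 they were Ap5z1, Cacna1a and Brap (0.85 to 0.87). Bmpr2 was nearest to Akap8, Celf2 and Ssr1 (0.94 to 0.95), Bmpr1a to Klhl7, Epha4 and Mff (0.92 to 0.93), and Smad1 to Mex3d, Kctd3 and Pkd2 (0.94 to 0.95). Bmpr1b had no gene above 0.75, with Mcc, Pld2 and Tapbpl at the top. The libraries share batches and depth, and these values are descriptions over 20 points.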

How the data were processed

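RNA from FACS-sorted cells was amplified from polyA RNA and sequenced on a NextSeq500. The authors trimmed reads with cutadapt 3.4, checked them with FastQC 0.11.9, aligned them to GRCm38 with STAR 2.6.1, quantified them with Salmon 1.9.0 and tested with DESeq2 1.26.0, and deposited 1 table of RPKM for 20 libraries (26 further columns were blank). The gene lengths, read totals and annotation behind the RPKM are not given in the sources used here, and low values shared no common step, so the depth is unknown. Populations were compared on log2(RPKM + 1) with limma 3.58.1 (R 4.3.3), with 1 mean per population and a trended prior, over 27614 genes at 1 RPKM or more in at least 4 libraries, and Benjamini-Hochberg adjustment at 0.05. The blocked fit added batch. Batch labels pair the libraries, and the deviations of same-batch libraries from their population means correlated with a median r of 0.43 over 40 pairs (lowest 0.03), against -0.20 over 120 pairs of different batches. Deviations from a population's own mean cancel over its batches, so a positive same-batch value by itself pushes the value between batches below 0. The code was tested on simulated data. Members, gene lists and marker lists were chosen with earlier results of these data known. All 10 members are described, other listed genes are counted, and named when called in any comparison with or without the block or when highest in their list, and the 3 genes most like each member are given. Genes named beyond this rule (Bmp8b, Gdf5, Smad5, Msx1) were chosen after their values were seen. With 4 libraries a group, precision rests on the spread between batches.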

Additional observations from a re-analysis of the deposited data

Results flagged for a closer look

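In the 50 groups of 4 libraries made by 10 genes and 5 populations, 4 held a library far from the other 3 on log2(RPKM + 1). For independent, normally distributed values, chance alone gives about 1 such group in 20. The values here share libraries and batches and have a floor at 0, so the count cannot be read against that rate. Bmp6 was at 9.31 RPKM in BNAP/GRP1 of batch 4, where the other batches had at most 0.203 RPKM, and at 0.865 RPKM in GRP2/MP3 of batch 4, against at most 0.0437 RPKM. Smad9 was at 0.738 RPKM in GRP2/MP3 of batch 4, against at most 0.083 RPKM. Both GRP2/MP3 values lie below the median over all genes of that library, 0.977 RPKM, which is at most 0.201 RPKM in its other batches. Nog was listed at 0 in GRP3 of batch 3, where the other batches had 4.15 to 5.22 RPKM. Of these libraries 3 were of batch 4 and 1 was of batch 3, and the part of the batch in them was not tested.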

How the results depend on the processing

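No member was called in the fit without the replicate block, and 36 alternatives were tried. Bmp6 and Nog kept their direction against NSC in each of the 35 that retained them. In the mean of the progenitors against NSC, 1 member was called with the replicate block (Bmp6), 2 with library weights, 3 in batches 1 and 2 alone, and 2 without batch 3 and BNAP/GRP1 of batch 4 with the block. Leaving out 1 library or 1 batch gave 0 to 1 call there. Over the 4 comparisons of a progenitor with NSC, the calls numbered 1 with the block (Nog in GRP2/MP3), 8 with library weights, 8 in batches 1 and 2 alone and 3 without batch 3 and BNAP/GRP1 of batch 4. Between progenitors there were 6 calls with library weights, 4 in GRP3 against BNAP/GRP1 and 2 in GRP3 against GRP2/MP3, where 3852 and 2658 of 27614 genes were called, and 2 in batches 1 and 2 alone. The settings of batches 1 and 2 alone, and without batch 3 and BNAP/GRP1 of batch 4, were added after seeing the data. Library weights called 1443 to 4885 of all genes in these 4 comparisons with NSC, against 210 to 316 without them.

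Members near 0 changed sign, always between values within 1 SE of 0. On the log2 scale, library weights turned Bmpr1a (0.10), Bmpr1b (-0.054) and Bmpr2 (0.33) in BNAP/GRP1 and Bmpr1b (0.028) in PFMP. Quantile normalization turned Bmpr1b in BNAP/GRP1 (-0.39) and PFMP (0.016), and median-of-ratios scaling turned Bmpr1a (-0.043) and Smad1 (-0.10) in GRP3. Batches 1 and 2 alone turned Bmpr2 in BNAP/GRP1 (0.062), and leaving out batch 3 and BNAP/GRP1 of batch 4 turned Bmp2 there (-0.32). When 1 library or batch was left out, differences from NSC that crossed 0 ran from -0.10 to 1.04 for Bmp2 in GRP2/MP3, from -0.075 to 1.19 and from -0.43 to 0.60 for Bmp7 in BNAP/GRP1 and GRP2/MP3, from -0.28 to 0.62 and from -0.67 to 0.094 for Bmpr1a in GRP3 and PFMP, and from -0.31 to 0.70, -0.81 to 0.29 and -0.66 to 0.21 for Bmpr1b in BNAP/GRP1, PFMP and the mean. For Bmpr2 they ran from -0.46 to 0.35, -0.65 to 0.54 and -0.14 to 0.61 in BNAP/GRP1, GRP2/MP3 and the mean, and for Smad1 from -1.04 to 0.0047 and -0.32 to 0.40 in GRP2/MP3 and GRP3. The cause of these changes was not tested. Depth is unknown, so no counting error can be given for values under 1 RPKM, which include most of those of Bmp6.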
